A study of Mus musculus with 6 samples.

Results

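The 9 genes Ms4a1, Ms4a2, Ms4a4a, Ms4a4b, Ms4a4c, Ms4a6b, Ms4a6c, Ms4a6d and Ms4a7 of the mouse Ms4a family were followed through 6 libraries of splenic CD4+ T cells. They were taken by symbol from the 22899 genes of each deposited table, and each symbol was found. Sorted CD4+ T cells came from C57BL/6 mice that were obese on a high-fat diet with 60 kcal% fat (3 libraries) or lean on a normal diet (3 libraries). Diets began mostly at 6 to 8 weeks of age and lasted at most 4 months, and mice of both groups carried no engineered allele named in the labels. The labels do not say whether a library came from 1 mouse or from a pool, so each p-value speaks only of the spread between libraries, which may be technical. A single sorted population was sequenced, so the cell types linked to each gene below are background and were not measured as separate samples.

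Ms4a genes encode membrane proteins that cross the bilayer several times and sit beside signalling receptors. Different blood lineages use different members: Ms4a1 (CD20) belongs to B cells, Ms4a2 is the beta chain of the high-affinity IgE receptor of mast cells and basophils, and Ms4a4b and Ms4a6b belong to mouse T cells. Ms4a4a, Ms4a6c, Ms4a6d and Ms4a7 are mainly known from monocytes and macrophages, while Ms4a4c is found in myeloid cells and in lymphocytes. In mouse T cells Ms4a4b associates with GITR (Tnfrsf18), a costimulatory receptor of regulatory and activated T cells.

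The members lie close together on chromosome 19 (RefSeq, GRCm38.p6), between 11249679 and 11623790, within a cluster of 21 Ms4a genes that spans 679 kb. All 21 had a row in the tables. The neighbours Ms4a6c (11469353 to 11487182) and Ms4a6b (11518559 to 11530403) are close paralogues, as are Ms4a4c (11404717 to 11427246) and Ms4a4b (11443558 to 11463549), and in each of these pairs the T cell member was the far more abundant. Their promoters are shown because the members of each pair differed in level while sharing upstream sequence. Each line holds the 250 bases before the annotated start on the plus strand, from the RefSeq promoter table of GRCm38.p6 (chr19:11469118-11469367 for Ms4a6c, chr19:11518309-11518558 for Ms4a6b, chr19:11407411-11407660 for Ms4a4c and chr19:11443308-11443557 for Ms4a4b), with the longest run of letters that the pair shares in capitals. The table's start lies inside the gene's span for Ms4a4c and Ms4a6c.
Ms4a6c: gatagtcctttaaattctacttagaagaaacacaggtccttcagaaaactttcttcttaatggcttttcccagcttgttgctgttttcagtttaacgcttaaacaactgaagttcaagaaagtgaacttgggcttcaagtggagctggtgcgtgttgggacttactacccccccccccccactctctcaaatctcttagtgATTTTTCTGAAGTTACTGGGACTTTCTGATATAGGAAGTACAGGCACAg
Ms4a6b: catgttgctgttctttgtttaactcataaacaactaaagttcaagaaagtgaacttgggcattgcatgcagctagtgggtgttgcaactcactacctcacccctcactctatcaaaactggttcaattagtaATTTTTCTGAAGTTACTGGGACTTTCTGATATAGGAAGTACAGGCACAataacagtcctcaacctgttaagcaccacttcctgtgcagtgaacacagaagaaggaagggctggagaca
Ms4a4c: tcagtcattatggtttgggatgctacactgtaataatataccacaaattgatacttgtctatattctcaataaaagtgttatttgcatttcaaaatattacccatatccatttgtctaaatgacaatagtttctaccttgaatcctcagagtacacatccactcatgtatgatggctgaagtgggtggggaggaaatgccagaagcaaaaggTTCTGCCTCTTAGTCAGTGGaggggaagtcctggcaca
Ms4a4b: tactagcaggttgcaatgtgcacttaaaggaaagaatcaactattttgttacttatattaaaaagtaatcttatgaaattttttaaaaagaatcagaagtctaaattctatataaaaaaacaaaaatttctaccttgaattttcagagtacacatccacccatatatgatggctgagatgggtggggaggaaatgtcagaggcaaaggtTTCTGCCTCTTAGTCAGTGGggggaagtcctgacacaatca

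The shared run was 48 bases long in Ms4a6c and Ms4a6b and 20 bases long in Ms4a4c and Ms4a4b. In Ms4a6c it ended next to the annotated start, at positions −49 to −2, and in Ms4a6b it lay further upstream, at positions −118 to −71. The best local alignment of Ms4a6c and Ms4a6b held 149 identical letters over 182 columns (81.9%), and that of Ms4a4c and Ms4a4b held 181 over 252 columns (71.8%). The other 19 pairs among the 7 members in the promoter table aligned at 46.5% to 53.6%, with shared runs of at most 9 bases. GAGGAA, the core letters bound by the myeloid and B cell factor PU.1, was found on either strand in the windows of Ms4a4b and Ms4a4c, 2 of 7 members, against 23.3% of 32851 promoter windows of the same length. The RUNX core TGTGGT was found in the window of Ms4a4c (1 of 7 members, 14.0% of all windows). The TATA box motif, searched as TATAAA, was found in the window of Ms4a4b (1 of 7 members, 12.4% of all windows). No motif holds the letters of another. These matches describe letters in a window and nothing about binding.

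Transcripts of these paralogues also share stretches that a read could fit. In the GENCODE transcripts of the same build, 6.08% of the 50-base stretches of Ms4a6c occurred in Ms4a6b and 7.67% of those of Ms4a4c occurred in Ms4a4b. Ms4a2 shared 2.13% of its 50-base stretches, and 0.419% at 100 bases, with Ms4a4b, and Ms4a6d shared 2.69% at 50 bases with Ms4a6b. Only protein-coding transcripts of genes named Ms4a there were compared. Ms4a19 and Ms4a20, not found under those names, and the other genes of the cluster were not searched. Among the transcripts compared, no 50-base stretch of Ms4a1, Ms4a4a or Ms4a7 occurred in another gene. At 100 bases none of Ms4a6b, Ms4a6c or Ms4a6d did. The read length is not given in the sources used here, so values of Ms4a2, Ms4a4b, Ms4a4c, Ms4a6b, Ms4a6c and Ms4a6d can depend on how the authors' counting divided such reads. This bears most on the low members Ms4a2 and Ms4a6d, whose partners Ms4a4b and Ms4a6b stood at 248 to 385 FPKM. The annotation also places the noncoding genes BE692007 and 4930526L06Rik opposite Ms4a6c and Ms4a1, and strand use in the counting is not given in the sources used here.

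The tables give FPKM, fragments per gene corrected for transcript length and library size, so levels can be set side by side between genes. Summed over all genes, FPKM came to 595106 to 630744 in obese and 616104 to 656303 in lean libraries. Read counts were not used here and depth is unknown. Libraries of 1 group correlated at 0.989 to 0.995 and libraries of different groups at 0.971 to 0.987 across the tested genes on the log2 scale, as a description, since genes do not stand in for replicates. The obese libraries stood apart most in erythroid markers, whose summed FPKM was 29037, 4367 and 23516 in obese and 185, 482 and 214 in lean libraries, and the part of this in the results below was not tested. Transcripts of the labelled cell type were abundant, which does not measure purity. Cd4 stood at 279 to 325 FPKM in obese and 324 to 363 FPKM in lean libraries. The summed FPKM of the 17 T cell markers was 4640 to 5757 in obese and 5431 to 6038 in lean libraries. Markers of other cells were present in each library, some at levels like that of Cd4. The B cell gene Cd79a stood at 218 to 405 FPKM in obese and 150 to 365 FPKM in lean libraries. The plasma cell gene Jchain stood at 591 to 1071 FPKM in obese and 334 to 385 FPKM in lean libraries. Values of other such markers are given beside the Ms4a members they concern. In such bulk samples, fewer cells of a type and less RNA per cell cannot be told apart.

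Transcripts of the T cell members made up most of the family's signal in both groups. Of the summed FPKM of the 9 members, Ms4a4b took 43.6% to 48.7% in obese and 45.6% to 48.3% in lean libraries. Ms4a6b took 33.5% to 37.4% in obese and 40.4% to 41.3% in lean libraries. By group mean the order in obese libraries was Ms4a4b, Ms4a6b, Ms4a1, Ms4a6c, Ms4a4c, Ms4a6d, Ms4a7, Ms4a4a and Ms4a2, and in lean libraries it was the same except that Ms4a4c stood before Ms4a6c. Neighbours in that order whose libraries overlapped were Ms4a1 with Ms4a6c, Ms4a6c with Ms4a4c and Ms4a7 with Ms4a4a in the obese group. In the lean group they were Ms4a4b with Ms4a6b, Ms4a1 with Ms4a4c, Ms4a4c with Ms4a6c and Ms4a4a with Ms4a2. The plot of members by library shows these levels.

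**Figure D1:**
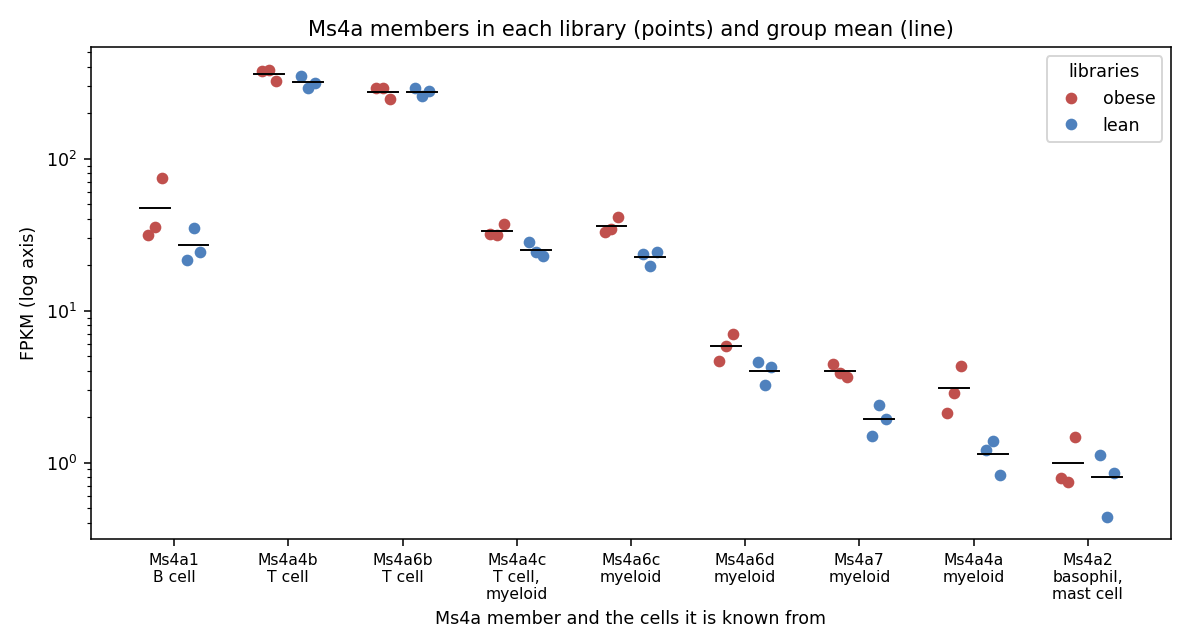
FPKM of the 9 Ms4a members (log axis) in the 3 obese libraries (red, left) and the 3 lean libraries (blue, right), with 1 point per library and a line at each group mean. Ms4a4b and Ms4a6b stand between 248 and 385 FPKM in every library, Ms4a1, Ms4a4c and Ms4a6c between 19.7 and 74.3 FPKM, and the other members at or below 7 FPKM.

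Obese and lean libraries were compared to find which of these transcripts differ with diet-induced obesity. Of the 9 members, 8 passed the filter on low values (at least 1 FPKM in at least 3 libraries) and were tested. Ms4a4a, Ms4a6c and Ms4a7, all known from myeloid cells, were higher in obese libraries, and no member was lower. They are 3 of 8 tested members, where 6.28% of the 10788 tested genes were called, 5.77% higher and 0.519% lower (limma on log2(FPKM + 1), Benjamini-Hochberg adjusted p under 0.05). In 5 tested members, the myeloid ones and Ms4a4c, each obese library lay above each lean library, as it did for 25.4% of all tested genes. No member had each obese library below each lean library, which 6.15% of tested genes had. Differences below are given as obese minus lean in units of log2(FPKM + 1), on which scale the median of all tested genes was 0.10 and low levels are compressed: it understates the change of genes at low levels.

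Ms4a6c, a myeloid member, had the highest level and the smallest adjusted p among the members called. It stood at 32.8, 34.6 and 41.4 FPKM in the obese libraries, against 23.6, 19.7 and 24.3 FPKM in the lean libraries. The groups did not overlap, and obese 3 was the highest. The means were 36.2 ± 4.52 FPKM in obese and 22.6 ± 2.46 FPKM in lean libraries (SD, n = 3 each), which differ by 0.66 ± 0.11 (SE; limma, BH-adjusted p = 0.0126). It passed under each of the 13 alternatives, leaving out any 1 library included.

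Ms4a7, a macrophage member, stood at 4.42, 3.86 and 3.68 FPKM in the obese libraries, against 1.5, 2.4 and 1.93 FPKM in the lean libraries. Its lean libraries were all below the lowest obese library. The difference, 0.77 ± 0.14 (SE), passed (limma, BH-adjusted p = 0.0149), with means of 3.99 ± 0.386 FPKM in obese and 1.94 ± 0.450 FPKM in lean libraries (SD, n = 3 each). It did not pass without lean 1 (limma, BH-adjusted p = 0.0553; difference 0.66) or without a filter on low values (limma, BH-adjusted p = 0.0559).

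Ms4a4a, a macrophage surface protein that works with the fungal glucan receptor Dectin-1 (Clec7a), stood at 2.13, 2.87 and 4.35 FPKM in the obese libraries, against 1.21, 1.39 and 0.83 FPKM in the lean libraries. Obese 3 was the highest and lean 3 the lowest, and the groups did not overlap. The difference was 0.92 ± 0.20 (SE; limma, BH-adjusted p = 0.0315). The call rested on few libraries: without obese 2, lean 1, lean 2 or lean 3 the limma BH-adjusted p was 0.0577, 0.0839, 0.0712 and 0.0680, and without a filter it was 0.0894. The difference was 0.81 without lean 3 and larger in the others of these fits. Over all 6 leave-one-out fits, those that passed included, it lay between 0.71 and 1.09.

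Ms4a6d, which in mouse macrophages acts with Vsig4 to restrain the Nlrp3 inflammasome, did not pass. It stood at 4.64, 5.89 and 7 FPKM in the obese libraries, against 4.57, 3.25 and 4.23 FPKM in the lean libraries. The groups did not overlap, but obese 1 and lean 1 were close. The difference was 0.44 ± 0.16 (SE; limma, BH-adjusted p = 0.127).

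Ms4a4c, known from both myeloid cells and lymphocytes, missed the threshold narrowly. It stood at 32.1, 31.5 and 36.9 FPKM in the obese libraries, against 28.3, 24.4 and 22.8 FPKM in the lean libraries. Each obese library was above each lean library, by 0.40 ± 0.10 on average (SE; limma, BH-adjusted p = 0.0558). It passed after scaling each library to one common total (TPM; limma, BH-adjusted p = 0.0403; difference 0.47) and had a difference of 0.25 after median-of-ratios scaling (limma, BH-adjusted p = 0.151).

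Macrophage and monocyte markers, summed over each list, were also higher in each obese library. Of 18 macrophage markers, 17 were tested and all 17 were called higher (5.77% of all tested genes were), with a median difference of 1.51 (0.10 over all tested genes). Vsig4, the marker under the filter, stood at 0.26 to 1.14 FPKM in obese and 0.04 to 0.07 FPKM in lean libraries. Their summed FPKM was 1491, 1282 and 1193 in obese libraries and 463, 457 and 491 in lean libraries, and no marker was at 0 in all libraries. The rises of Cd5l, an apoptosis inhibitor secreted by macrophages, and of C1qa, C1qb and C1qc, the chains of complement C1q, had the smallest p-values of the list, with differences of 2.01, 1.48, 1.44 and 1.5 and a limma BH-adjusted p of 4.00e-04 each. Of 12 monocyte markers, 8 were called higher and none lower, with a median difference of 0.94, and their summed FPKM was 1064 to 1420 in obese and 734 to 866 in lean libraries. Treml4, Fn1, Fcgr1 and Cx3cr1 had the smallest p-values among them, with differences of 1.46, 1.16, 0.93 and 1.02 (limma, largest BH-adjusted p = 0.00291). Not called were Ccr2 and Csf3r, at 0.69 and 0.17, and Ly6c2 and Nr4a1, at −0.10 and −0.08 (limma, smallest BH-adjusted p = 0.0588). The part of these cells in the differences of Ms4a4a, Ms4a6c and Ms4a7 was not tested.

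Set against the macrophage list, the myeloid members were not higher in obese libraries. Per 100 summed FPKM of the macrophage markers, Ms4a6c had 2.20, 2.70 and 3.47 FPKM in obese libraries and 5.10, 4.32 and 4.95 FPKM in lean libraries, so this ratio was lower in each obese library. Ms4a7 had 0.302 ± 0.00609 FPKM in obese and 0.414 ± 0.102 FPKM in lean libraries by the same measure (SD, n = 3 each), and Ms4a6d had 0.453 ± 0.138 and 0.853 ± 0.138 FPKM in obese and lean libraries (SD, n = 3 each). For these genes, too, each obese library was below each lean library. Ms4a4a overlapped, with 0.143, 0.224 and 0.365 FPKM in obese and 0.261, 0.304 and 0.169 FPKM in lean libraries. Per 100 summed FPKM of the monocyte markers, Ms4a6c had 3.08, 3.03 and 2.91 FPKM in obese and 2.92, 2.28 and 3.31 FPKM in lean libraries, so the groups overlapped. Ms4a6d and Ms4a7 overlapped on this scale as well, while Ms4a4a had 0.200, 0.251 and 0.306 FPKM in obese and 0.149, 0.161 and 0.113 FPKM in lean libraries and was higher in each obese library. Ms4a4c, which is not tied to one lineage, had 2.15, 2.46 and 3.10 FPKM in obese and 6.11, 5.35 and 4.65 FPKM in lean libraries per 100 summed FPKM of macrophage markers, lower in each obese library. Per 100 summed FPKM of T cell markers it had 0.577, 0.547 and 0.796 FPKM in obese and 0.468, 0.415 and 0.420 FPKM in lean libraries, higher in each obese library. Its groups overlapped per 100 summed FPKM of monocyte markers, with 3.02, 2.75 and 2.60 FPKM in obese and 3.49, 2.82 and 3.11 FPKM in lean libraries, so its direction depended on the list. These ratios are descriptions, and the most abundant markers of a list weigh most in its sum. Among monocyte markers these were Lyz2 and Ly6c2. Lyz2 stood at 650 to 902 FPKM in obese and 323 to 434 FPKM in lean libraries. Ly6c2 stood at 243 to 333 FPKM in obese and 304 to 329 FPKM in lean libraries and was not called. The size of the ratios per monocyte markers therefore depends in part on Ly6c2 being in the list. Whether each overlap holds without Ly6c2 was not tested.

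**Figure D2:**
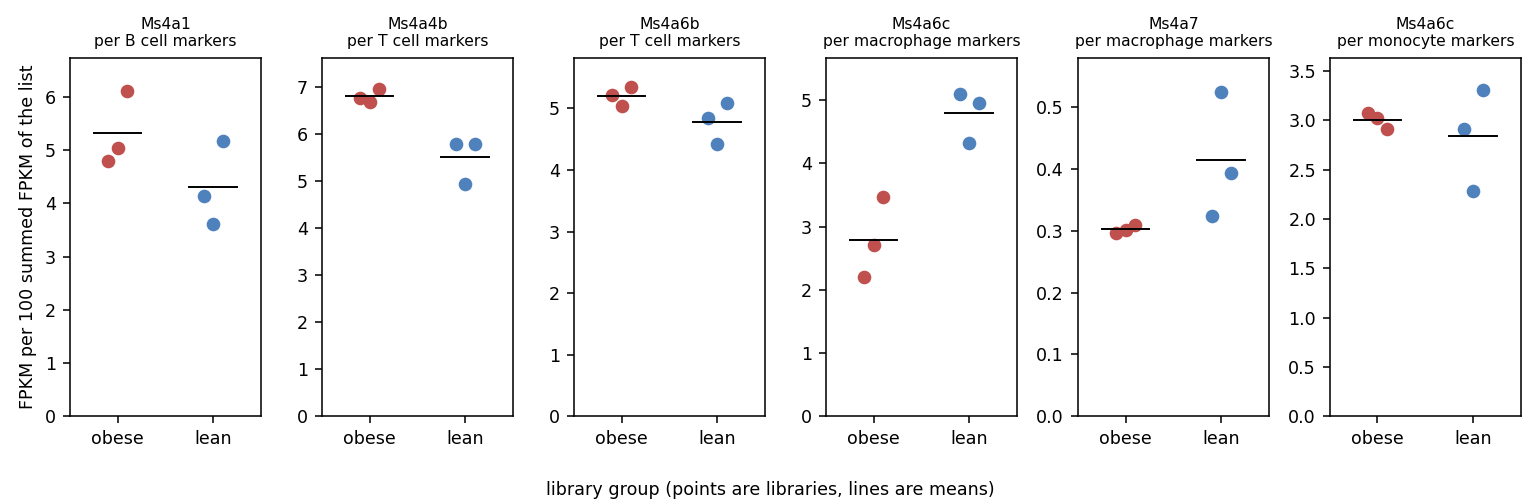
FPKM of an Ms4a member per 100 summed FPKM of a marker list, in the obese (red, left) and lean (blue, right) libraries, with 1 point per library and lines at group means. Ms4a6c and Ms4a7 are lower in obese libraries per macrophage markers, Ms4a4b is higher per T cell markers, and the groups overlap for Ms4a1, Ms4a6b and for Ms4a6c per monocyte markers.

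The T cell members showed no called difference. Ms4a4b stood at 377, 385 and 322 FPKM in the obese libraries, against 349, 291 and 314 FPKM in the lean libraries. The groups overlapped, since obese 3 was below lean 1. The difference was 0.18 ± 0.10 (SE; limma, BH-adjusted p = 0.274), and it was 0.03 after median-of-ratios scaling (limma, BH-adjusted p = 0.885). Ms4a6b, reported beside Ms4a4b in mouse T cells, stood at 290.4, 290.1 and 248 FPKM in the obese libraries, against 292, 260.3 and 277 FPKM in the lean libraries. Its group means were 276 ± 24.5 FPKM in obese and 276 ± 16.0 FPKM in lean libraries (SD, n = 3 each), and its difference was −0.004 ± 0.09 (SE; limma, BH-adjusted p = 0.984). Its sign turned with the setting, between −0.15 and 0.07 over the 13 alternatives.

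None of the 17 T cell markers was called either, and their median difference was −0.12. It was −0.27 after median-of-ratios scaling and −0.03 without obese 3. Lef1, a transcription factor of naive T cells, and Cd28, the costimulatory receptor, had the smallest p-values, with differences of −0.44 ± 0.14 and 0.27 ± 0.13 (SE; limma, BH-adjusted p = 0.0917 and 0.211). Per 100 summed FPKM of these markers, Ms4a4b had 6.77, 6.68 and 6.95 FPKM in obese libraries and 5.79, 4.94 and 5.78 FPKM in lean libraries, each obese library being above each lean library. Ms4a6b had 5.22, 5.04 and 5.34 FPKM in obese and 4.84, 4.42 and 5.09 FPKM in lean libraries by the same measure, and the groups overlapped. Tnfrsf18, the GITR partner of Ms4a4b, stood at 93.7 to 103.8 FPKM in obese and 84.2 to 103.9 FPKM in lean libraries and was not called (difference 0.08 ± 0.09, SE; limma, BH-adjusted p = 0.614).

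The paralogues of the cluster can be set against each other within a library. The log2 level of Ms4a6c minus that of Ms4a6b was −3.11, −3.03 and −2.56 in the obese libraries, against −3.57, −3.66 and −3.46 in the lean libraries. The gap was narrower in each obese library, by 0.66 on average. For Ms4a4c minus Ms4a4b the log2 gap was −3.51, −3.57 and −3.09 in the obese libraries, against −3.58, −3.52 and −3.73 in the lean libraries, and the groups overlapped. These gaps were computed after the members' values were seen and carry no test.

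**Figure D3:**
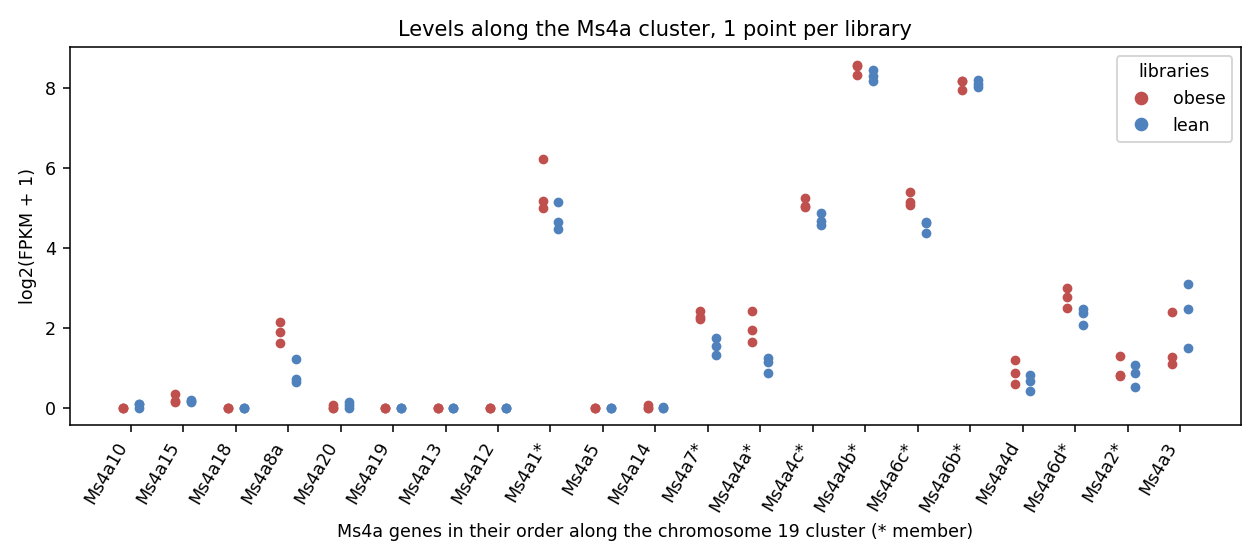
Levels on the log2(FPKM + 1) scale of the 21 Ms4a genes in their order along the chromosome 19 cluster, with 1 point per obese (red, left) and lean (blue, right) library; stars mark the 9 members. Ms4a4b and Ms4a6b stand above their neighbours Ms4a4c and Ms4a6c, and most genes at the left end are at or near 0.

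Ms4a1, the B cell member CD20, had the largest standard error of the tested members. It stood at 31.4, 35.5 and 74.3 FPKM in the obese libraries, against 21.5, 34.8 and 24.3 FPKM in the lean libraries. Obese 3 stood far above every other library, and lean 2 lay within the obese range. The groups differed by 0.71 ± 0.30 (SE; limma, BH-adjusted p = 0.181), a difference that was 0.33 without obese 3 (limma, BH-adjusted p = 0.388). Within each group the summed FPKM of B cell markers was highest in the same library as Ms4a1, obese 3 and lean 2. This sum was 653, 704 and 1217 in obese libraries and 519, 962 and 469 in lean libraries. Between groups the order differed: lean 2 stood above obese 2 in the sum but slightly below it in Ms4a1. None of these 14 markers was called, and none was at 0 in all libraries. Their median difference was 0.44, but 0.14 without obese 3 and 0.73 without lean 2. Bank1 and Blnk, adaptors of B cell receptor signalling, had the smallest p-values, with differences of 0.85 and 0.64 (limma, BH-adjusted p = 0.0789 and 0.162). Per 100 summed FPKM of the list, Ms4a1 had 4.80, 5.04 and 6.11 FPKM in obese and 4.14, 3.61 and 5.18 FPKM in lean libraries, and the groups overlapped. The part of B cells in the values of Ms4a1 was not tested.

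Ms4a2, the IgE receptor beta chain, was near the lower limit of the data and was not tested. It stood at 0.79, 0.74 and 1.47 FPKM in the obese libraries, against 1.12, 0.44 and 0.85 FPKM in the lean libraries. The groups overlapped, with the highest value in obese 3 and the lowest in lean 2. Of 13 basophil and mast cell markers, 10 were tested and none was called, with a median difference of −0.30 that was −0.07 without lean 1 and −0.47 without lean 2, and Mrgprb2 was listed at 0 in each library. Their summed FPKM was 31.0, 37.8 and 58.0 in obese libraries and 104.4, 52.8 and 56.0 in lean libraries. Prss34, a basophil protease, and Cma1, a mast cell chymase, had the smallest p-values, with differences of −1.61 and −0.36 (limma, BH-adjusted p = 0.0800 and 0.141). Per 100 summed FPKM of these markers, Ms4a2 had 2.55, 1.96 and 2.53 FPKM in obese libraries and 1.07, 0.833 and 1.52 FPKM in lean libraries.

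**Figure D4:**
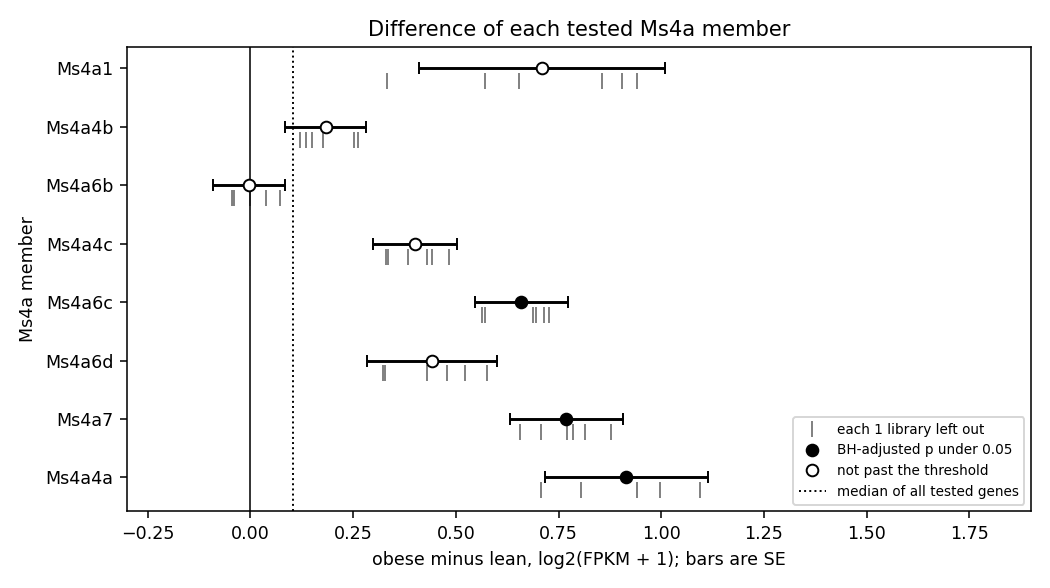
Difference between obese and lean libraries on the log2(FPKM + 1) scale for the 8 tested Ms4a members; circles with bars are the estimate and its SE, filled where the limma BH-adjusted p was under 0.05, and grey ticks are the estimates with each library left out in turn. The myeloid members lie between 0.44 and 0.92, Ms4a4b and Ms4a6b lie near the median of all genes (dotted, 0.10), and Ms4a1 has the widest error.

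Members of different lineages were also set against each other within libraries, with 1 gene each for myeloid, B and T cells. The difference of Ms4a7 exceeded that of Ms4a4b by 0.59 on the log2 scale, and the obese and lean libraries did not overlap in this gap. The exact permutation test, 2-sided, gave p = 0.1, the smallest that 3 against 3 libraries allow, and 0.3 after Benjamini-Hochberg adjustment over the 3 pairs. Ms4a7 exceeded Ms4a1 by 0.06 (exact permutation p = 1, adjusted 1), and Ms4a1 exceeded Ms4a4b by 0.53 (exact permutation p = 0.4, adjusted 0.6). This last gap was 0.07 without obese 3, and the gap of Ms4a7 over Ms4a1 was 0.48 without obese 3 and −0.23 without obese 1. This design cannot pass a threshold of 0.05, so these tests show neither that the members differ nor that they act alike.

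Binding partners and signalling genes of the family were mixed. Of 22 listed genes, 20 were tested, 4 were called higher and none lower, where 5.77% of all tested genes were called higher and 0.519% lower. The median difference of the list was 0.37 (0.10 over all tested genes), and it was 0.65 without lean 2. Clec7a, which encodes Dectin-1, stood at 5.58, 6.25 and 7.21 FPKM in the obese libraries, against 3.43, 3.32 and 2.66 FPKM in the lean libraries. The groups did not overlap, and the difference was 0.83 ± 0.13 (SE; limma, BH-adjusted p = 0.00716). Lyn, a kinase of B and myeloid cells, had 0.73 ± 0.13 (SE; limma, BH-adjusted p = 0.0130), Cd81, a tetraspanin of the B cell coreceptor found on many cells, had 0.55 ± 0.09 (SE; limma, BH-adjusted p = 0.00896), and Tyrobp, a myeloid and NK cell adaptor, had 0.36 ± 0.08 (SE; limma, BH-adjusted p = 0.0268). Lyn did not pass without lean 1 (limma, BH-adjusted p = 0.0557), and Tyrobp had 0.21 after median-of-ratios scaling (limma, BH-adjusted p = 0.221) and passed in 2 of 6 leave-one-out fits. Cd79a and Cd79b, the signalling chains beside which CD20 sits in the B cell receptor, had differences of 0.38 and 0.36 and were not called (limma, BH-adjusted p = 0.490 and 0.470). Fcer1a, the IgE-binding partner of Ms4a2, stood at 1.64 to 3.18 FPKM in obese and 2.07 to 4.66 FPKM in lean libraries and was not called.

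Other genes of the family were mostly silent or low. Of the 12 further Ms4a genes of the cluster, 2 passed the filter, and 5 were listed at 0 in each library: Ms4a5, Ms4a12, Ms4a13, Ms4a18 and Ms4a19 (listed as 1700025F22Rik). Ms4a8a, known from alternatively activated mouse macrophages, stood at 3.49, 2.75 and 2.08 FPKM in the obese libraries, against 1.33, 0.57 and 0.67 FPKM in the lean libraries. It was called higher by 1.03 ± 0.19 (SE; limma, BH-adjusted p = 0.0169) but did not pass without lean 2 or lean 3 (limma, BH-adjusted p = 0.0698 and 0.0505) or without a filter (0.0587). Its level reached the filter in the 3 obese libraries and in lean 1. Ms4a3, of granulocyte and monocyte precursors, stood at 1.16, 1.45 and 4.30 FPKM in the obese libraries, against 7.54, 1.85 and 4.58 FPKM in the lean libraries, and was not called (difference −0.76 ± 0.43, SE; limma, BH-adjusted p = 0.290). Of 13 neutrophil markers, 7 were called lower and none higher, where 0.519% of all tested genes were called lower. The list had a median difference of −1.36 and summed FPKM of 166 to 469 in obese and 611 to 892 in lean libraries. Retnlg, Lcn2, S100a8 and S100a9 had differences of −1.36, −1.81, −1.40 and −1.42. The part of neutrophils in the values of Ms4a3 was not tested. Lcn2, S100a8 and S100a9 did not pass without lean 1, without lean 2 or without a filter (limma, BH-adjusted p up to 0.0598, 0.0764 and 0.0836), while Retnlg passed under all 13 alternatives. Tmem176a and Tmem176b, relatives of the family outside the cluster, had differences of 0.23 and 0.32 and were not called (limma, BH-adjusted p = 0.243 and 0.116).

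Genes whose levels followed a member most closely over the 6 libraries were ranked by Pearson r of log2(FPKM + 1). They are named as a description only, since a search of so many genes over 6 points gives high values readily. The search covered the tested genes with a symbol, predicted genes left out. Ms4a1 was closest to Irf8, Bhlha15 and Myo1e (r = 0.998, 0.994 and 0.993). Ms4a6c was closest to Gpm6b, Shtn1 and Anxa3 (r = 0.999, 0.999 and 0.998), Ms4a7 to Mpzl1, Pilrb2 and Hexa (r = 0.991, 0.990 and 0.990), Ms4a6d to Pfkfb3, Eprs and Aqp11 (r = 0.997, 0.996 and 0.996), and Ms4a4a to Zmat1, Pcgf2 and BC055324 (r = 0.998, 0.994 and 0.993). Ms4a4c was closest to Ttc39c, Mtrf1 and Rfx5 (r = 0.997, 0.997 and 0.996), Ms4a4b to Vsp35l, Cdc23 and Nabp1 (r = 0.991, 0.983 and 0.980) and Ms4a6b to Slfn1, Ehd3 and Mboat1 (r = 0.984, 0.982 and 0.981). After median-of-ratios scaling, r was −0.374 for Ms4a4a and Pcgf2 and 0.746 for Ms4a4b and Vsp35l. Among the members themselves, without this scaling, Ms4a6c and Ms4a6d had the highest r (0.933). Ms4a1 and Ms4a6b had the lowest (−0.771), over libraries that also differ by group.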

How the data were processed

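Per the labels' protocols, RNA of splenic CD4+ T cells was run on a HiSeq instrument; titles give 3 obese and 3 lean libraries. FPKM values, to 2 decimals and 1 table per library, are as the authors deposited them. Bowtie and RSEM and builds GRCm38 and mm10 are named per the submitters' processing notes, without versions. Not given in the sources used here: read length, annotation, filters and strand use. Low FPKM values times transcript length did not fall on whole-read steps (step score 0.266 to 0.363, against 0.894 to 0.907 for simulated whole reads, maximum 1), so depth is unknown and precision comes from the spread between libraries. The RefSeq table of GRCm38.p6 held 21633 of the 22899 gene numbers.

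Values were tested as log2(FPKM + 1) by limma (version 3.58.1, R 4.3.3), fitting group as the sole term and moderating variances along an intensity trend, with no further scaling. Genes entered at 1 FPKM or more in 3 or more of the 6 libraries, which left 10788. Tests were 2-sided, with Benjamini-Hochberg (BH) adjustment over all tested genes and calls under 0.05. SE is that of limma. Of 10788 genes, 678 were called (6.28%), and 31.5% had groups that did not overlap. The test was run on simulated tables of 10788 genes, 200 of them changed, 10 times; it recovered 39.6%, 85.9% and 98.2% of genes changed by 0.5, 1 and 2 on the log2 scale, and 4.24% of its calls were false. Local alignments used Biopython 1.88 on 250-base windows.

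The members, marker lists and partner list were chosen with earlier results of these data known. Named genes were all members, of each list up to 4 called genes with the smallest adjusted p or else the 2 with the smallest p, and the 3 genes most correlated with each tested member, without predicted genes. Genes named beyond this rule (Cd4, Lyz2, Vsig4, Tnfrsf18, Cd79a, Cd79b, Fcer1a, Ms4a3, the other Ms4a genes, Tmem176a and Tmem176b) were added for their role. Ccr2, Csf3r, Ly6c2 and Nr4a1 were added as the monocyte markers not called. The remaining lists were NK cells (3 of 10 tested lower, none higher; Klra8, Ncr1 and Klra4 at −0.77, −0.62 and −0.54), dendritic cells (none of 8 called; Bst2 and Batf3 at −0.29 and 0.54), plasma cells (2 of 7 higher; Jchain and Prdm1 at 1.00 and 0.79) and erythroid cells (9 of 10 higher; Slc4a1 at 5.26, and the near-identical globins Hba-a2, Hbb-bt and Hbb-bs at 5.91, 6.02 and 5.91, whose reads can be shared between copies). Beside these counts, 5.77% of all tested genes were called higher and 0.519% lower. With 1 library left out, Ncr1 and Klra4 each passed in 2 of 6 fits, Jchain in 3 and Prdm1 in 4. None of these 4 genes passed without a filter. Alternatives were a pseudocount of 0.1, no filter, a filter of 5 FPKM, scaling to TPM (a common total), median-of-ratios scaling, no intensity trend, the replicate number as a block, and each library left out.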

Additional observations from a re-analysis of the deposited data

How the results depend on the processing

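Of the members called, Ms4a6c passed under all 13 alternatives (difference 0.51 to 0.73; limma, BH-adjusted p up to 0.0435). Without a filter the test called 368 genes, 344 higher and 24 lower, and 1 member, over 17392 tested genes; with a filter of 5 FPKM it called 352, 316 higher and 36 lower, and 1 member, since Ms4a4a, Ms4a6d and Ms4a7 were then not tested. After median-of-ratios scaling the median of all tested genes moved to −0.03, against 0.10 without it, 173 genes were lower and 71.5% of the 607 calls were higher, against 91.7% of 678 without scaling, and the same 3 members passed. With each library left out in turn, 318 to 698 genes changed, 299 to 601 higher and 19 to 97 lower; 1 to 3 members and 2 to 4 partner genes were higher. Without obese 1, obese 3, lean 1 and lean 2 the genes changed numbered 464, 464, 326 and 318.

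The replicate block gave 1015 changed genes, 149 of them lower, and the same 3 members. Same-numbered libraries deviated together only weakly (r = 0.03, 0.06 and 0.19). Obese 3 correlated best with lean 3, while obese 1 correlated best with lean 2 (0.16). With 3 libraries per group, these values cannot decide whether the numbers pair the libraries. Ms4a6b turned sign with TPM scaling (0.0585), without obese 3 (0.0721) and without lean 1 (0.0373), with leave-one-out values from −0.0458 to 0.0721. The gap of Ms4a7 over Ms4a1 lay between −0.23 and 0.48 with each library left out, and turned sign without obese 1, obese 2 or lean 2. The r of Ms4a4a and Pcgf2 was −0.374 after median-of-ratios scaling, and that of Ms4a4b and Vsp35l was 0.746. The causes were not tested. Depth is unknown, which limits what can be said of Ms4a2 in both groups and of Ms4a4a in lean libraries, where they stood near 1 FPKM.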

Other observations

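Gm8369, a protein-coding gene that lies between Ms4a6c and Ms4a6b in the cluster, reached 15.8 FPKM in its highest library, above Ms4a6d, Ms4a7, Ms4a4a and Ms4a2. Its mean level was 14.9 ± 1.05 FPKM in obese and 12.2 ± 2.06 FPKM in lean libraries (SD, n = 3 each), and it was not called (difference 0.28 ± 0.13, SE; limma, BH-adjusted p = 0.202). Gm8369 was named after its values were seen.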
